A study of Rattus norvegicus with 12 samples.

Results

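The genes described here are the type I interferon response genes, 41 genes listed as a set. A gene was counted as measured where the array held at least 1 probe set, a group of short DNA probes read together, annotated with that gene's symbol and no other, and the brightest such probe set stood for the gene. This left 38 of the 41 genes, out of 14506 genes with such a probe set on the array. Ddx58 was found under the synonym Rig1, and Parp14, Xaf1 and Samhd1 had no probe set of their own and were dropped.

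Gene expression was measured with Affymetrix Gene 1.0 ST arrays in the mammary gland of female Lewis rats, 1 array per rat and 12 arrays in all. Every rat, controls included, was ovariectomized (ovx) at about 10 weeks of age, which removes the ovarian source of estrogen, and treatment began 14 days later with 3 subcutaneous doses given 24 h apart. Glands were taken 24 h after the last dose. The groups, each of 3 rats, were E2 + 3-MC, 3-MC, E2 and vehicle, a mixture of dimethyl sulfoxide (DMSO) and castor oil in which the compounds were also dissolved. E2 is 17β-estradiol, given at 4 µg/kg/day, and 3-MC is 3-methylcholanthrene, given at 15 mg/kg/day, a polycyclic aromatic hydrocarbon that activates the aryl hydrocarbon receptor (AHR), and the combined group received both doses. The whole gland was analysed, so that fewer cells of a type and less RNA per cell cannot be told apart. The luminal keratin Krt18 read between 841 and 2153 in all 12 rats. In E2 rats, 5 estrogen-responsive genes (among them Pgr and Areg) stood at a list level of 3.49, 3.29 and 3.37, against 0.20, 0.04 and -0.20 in vehicle rats, where a list level is the median over the genes of the log2 difference from the mean value in vehicle rats. Array medians ran from 85.7 to 109 intensity units. Markers of skeletal muscle differed widely between rats of the same group, with list levels from -3.63 to 1.77 among 3-MC rats and from -3.79 to 1.99 among vehicle rats. They ran from -3.38 to -2.02 among E2 + 3-MC rats and from -2.64 to -0.47 among E2 rats. On the mean all 8 markers were at least 1.5-fold lower than in vehicle rats in both of these groups. The part of muscle tissue in the levels below was not tested.

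Type I interferons are secreted proteins made when a cell senses viral or misplaced nucleic acid. They bind a receptor that nearly all cells carry, and the kinases JAK1 and TYK2 then phosphorylate STAT proteins, STAT2 among them, and a complex that holds STAT2 and IRF9 binds a DNA motif called the interferon-stimulated response element (ISRE). The genes switched on include antiviral GTPases and RNA-binding proteins, the ubiquitin-like ISG15 and its enzymes, the sensors and transcription factors of the pathway itself, and the immunoproteasome and peptide transporter that load MHC class I. Many of them also respond to interferon gamma, so their level does not name the interferon.

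The DNA element was looked for in the 250 bases before the start of each gene, read from the RefSeq promoter table of build GRCr8, which held 29 of the 38 genes. The core searched was GAAANNGAAA on either strand, which on the other strand reads TTTCNNTTTC. It was found before 15 of the 29 genes (51.7%), and before 902 of all 27457 promoters of the same length (3.29%). The matches for 7 genes whose levels are described below are shown 5′ to 3′ in the direction of transcription, because they carry the sequence that these genes share and that the choice of genes did not use. Capitals mark the core.
Ifit3: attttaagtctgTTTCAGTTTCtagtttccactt
Irf7: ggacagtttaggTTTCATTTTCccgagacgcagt
Rsad2: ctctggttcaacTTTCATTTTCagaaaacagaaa
Oas1a: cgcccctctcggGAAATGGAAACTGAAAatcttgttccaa
Oasl2: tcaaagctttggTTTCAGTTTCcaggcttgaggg
Gbp2: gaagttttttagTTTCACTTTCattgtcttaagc
Bst2: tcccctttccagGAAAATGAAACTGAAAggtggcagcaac
Tap1 is given with the whole 250 bases below.

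In GRCr8 these windows lie at chr1:241527270-241527303 (Ifit3, plus strand), chr1:205800071-205800104 (Irf7, minus strand), chr6:48788246-48788279 (Rsad2, minus strand), chr12:41330413-41330452 (Oas1a, plus strand), chr12:47383315-47383348 (Oasl2, minus strand), chr2:234005684-234005717 (Gbp2, plus strand) and chr16:18255071-18255110 (Bst2, minus strand). In Oas1a and in Bst2 the core occurred 2 times in overlapping positions. The other genes with a match were Tap1, Isg20, Oas3, Ifih1, Ifi44, Ifi27, Eif2ak2 and Gbp5. Mx1, Slfn4, Psmb9, Cmpk2 and Stat2 had no such letters in the window, which says only that this core is not in these 250 bases. The core of the AHR response element, GCGTG on either strand, was found before 9 of the 29 genes (31.0%), against 27.2% of all promoters, and the gamma-activated site core TTCNNNGAA before 5 (17.2%), against 7.52%.

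Tap1 and Psmb9 are divergent neighbours on chromosome 20, with 457 bases between their starts. The 250 bases before Tap1, on the minus strand at chr20:4668544-4668793, are shown because these 2 genes share the interval and are described together below. Capitals again mark the ISRE core.
Tap1: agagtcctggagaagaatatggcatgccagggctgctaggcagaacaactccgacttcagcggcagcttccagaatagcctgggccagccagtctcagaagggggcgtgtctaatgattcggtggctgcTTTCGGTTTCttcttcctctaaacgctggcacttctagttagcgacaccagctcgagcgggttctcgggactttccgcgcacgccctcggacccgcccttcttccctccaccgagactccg

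The pattern common to the set lay in individual rats more than in groups. 3-MC rat 1, E2 + 3-MC rat 2 and E2 + 3-MC rat 3 were the 3 highest of the 12 rats in 29 of the 38 genes (76.3%), against 2.02% of all 23371 probe sets tested. 3-MC rat 1 was the highest of all in 31 genes, and it was the highest in 25.1% of all probe sets. The list level was 0.24, 0.80 and 1.03 in E2 + 3-MC rats, 1.29, -0.05 and 0.02 in 3-MC rats, 0.02, -0.08 and -0.17 in E2 rats and -0.01, -0.38 and 0.31 in vehicle rats. Relative to the vehicle mean, 4, 26 and 28 genes were at least 1.5-fold higher in E2 + 3-MC rats, 36, 0 and 2 in 3-MC rats, 0, 2 and 0 in E2 rats, and 0, 0 and 6 in vehicle rats. Thus 1 of the 3 rats given 3-MC alone had nearly the whole set that far above the vehicle mean and the other two did not, while both E2 + 3-MC rats 2 and 3 had most of it. Over all probe sets tested, the shares that far above were 3.45, 3.88 and 5.49% in E2 + 3-MC rats and 8.48, 1.03 and 3.36% in 3-MC rats. They were 4.36, 4.67 and 2.28% in E2 rats and 0.976, 0.449 and 1.57% in vehicle rats. The array of 3-MC rat 1 also had the highest median intensity (109).

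**Figure D1:**
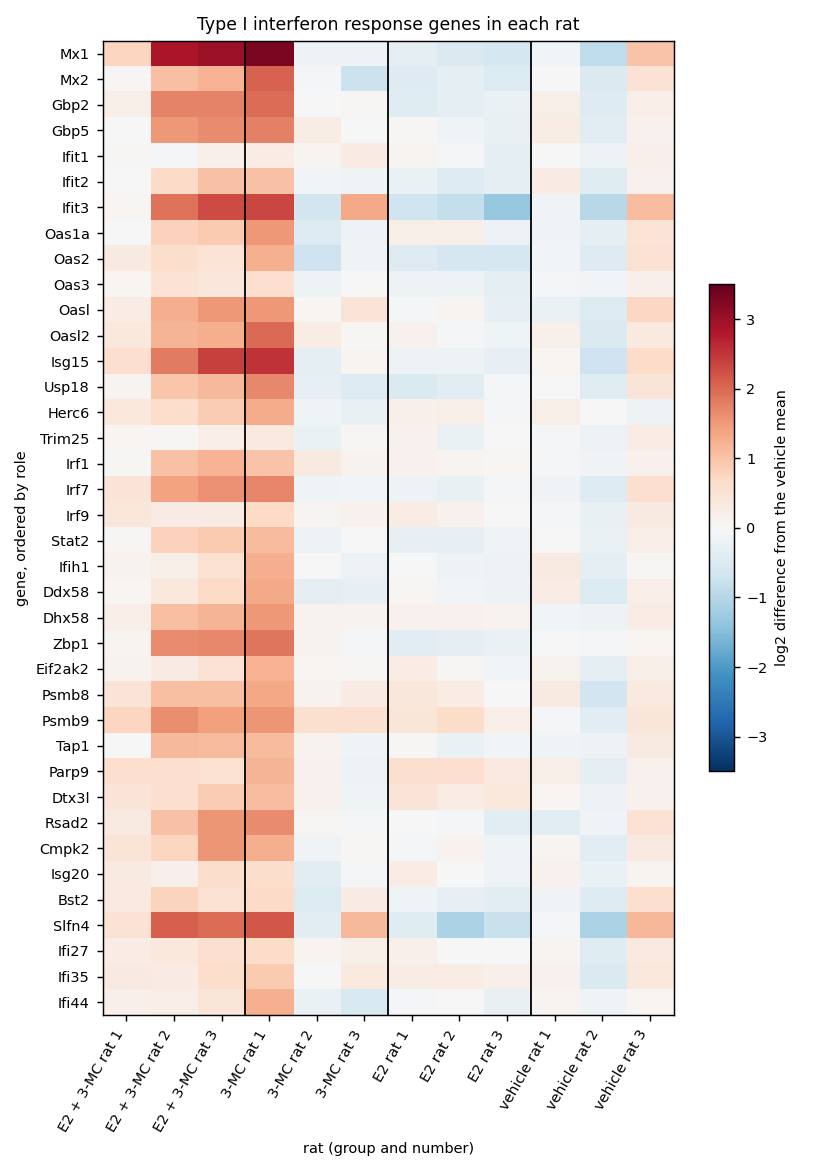
Heat map of the 38 type I interferon response genes (down the page, by role) in the 12 rats (columns, by group), coloured by the log2 difference of each rat from the mean of the 3 vehicle rats. 3-MC rat 1 and E2 + 3-MC rats 2 and 3 form the 3 dark columns, and 3-MC rats 2 and 3 and all E2 rats stay near the vehicle rats for most genes.

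The levels below are array intensities, a linear brightness scale on which values of different probe sets cannot be set against each other, given for rats 1, 2 and 3 of each group in turn. The dynamin-like GTPase Mx1, which blocks viral nucleocapsids, read 129, 608 and 691 in E2 + 3-MC rats, 829, 60.6 and 60.1 in 3-MC rats, 52.3, 44.8 and 40.6 in E2 rats and 64.2, 30.9 and 155 in vehicle rats. In 3 rats it stood at 608 or more, and no other rat was above 155. Its within-group standard deviation among 3-MC rats, 2.0 on the log2 scale, was the highest of the set in any group. For its neighbour on chromosome 11, Mx2, the readings were 137, 298 and 335 in E2 + 3-MC rats, 609, 126 and 73.4 in 3-MC rats, 94.2, 104 and 92.5 in E2 rats and 134, 90.4 and 196 in vehicle rats. The same 3 rats were highest, and 3-MC rat 3 was the lowest of all 12.

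Guanylate-binding protein Gbp2, an interferon-induced GTPase that acts on pathogen vacuoles, read 297, 879 and 886 in E2 + 3-MC rats, 1029, 252 and 261 in 3-MC rats, 186, 201 and 214 in E2 rats and 296, 183 and 305 in vehicle rats. Here the gap was sharp, since 3 rats lay at 879 or above and the other nine at 305 or below. Gbp5, from the same family, ran from 84.1 in vehicle rat 2 to 435 in 3-MC rat 1, with a median of 125 over the 12 rats.

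Among the IFIT proteins, which bind viral RNA ends and form a complex, Ifit3 read 297, 1105 and 1448 in E2 + 3-MC rats, 1479.7, 176 and 733 in 3-MC rats, 168, 151 and 103 in E2 rats and 259, 137 and 615 in vehicle rats. Unlike most genes, Ifit3 was also high in 3-MC rat 3 and in vehicle rat 3. Ifit2 gave 345, 559 and 712 in E2 + 3-MC rats, 711, 323 and 306 in 3-MC rats, 291, 246 and 276 in E2 rats and 422, 250.1 and 383 in vehicle rats. E2 + 3-MC rat 3 and 3-MC rat 1 were almost level, and the E2 rats lay among the lowest. By contrast, Ifit1 gave 53.5, 47.9 and 60.3 in E2 + 3-MC rats, 64.7, 55.7 and 65.9 in 3-MC rats, 55.0, 47.5 and 38.3 in E2 rats and 50.3, 43.3 and 60.5 in vehicle rats. It stayed within 38.3 to 65.9 over all rats and its groups overlapped.

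The oligoadenylate synthetases make the second messenger that activates RNase L. Oas1a was measured at 128, 232 and 254 in E2 + 3-MC rats, 394, 85.5 and 110.0 in 3-MC rats, 147, 149 and 107 in E2 rats and 115, 95.7 and 181 in vehicle rats. 3-MC rat 1 was highest and E2 + 3-MC rats 2 and 3 next, while 3-MC rat 2 was lowest. Oas2 was measured at 105, 131 and 118 in E2 + 3-MC rats, 210.3, 41.8 and 70.6 in 3-MC rats, 54.6, 48.2 and 48.5 in E2 rats and 74.7, 54.1 and 124 in vehicle rats. All 3 E2 + 3-MC rats were above all 3 E2 rats, and 3-MC rat 2 was the lowest of all. Oas3 was measured at 131, 184 and 168 in E2 + 3-MC rats, 197, 109 and 127 in 3-MC rats, 107, 109 and 96.6 in E2 rats and 118, 116 and 141 in vehicle rats. Every E2 rat was below every vehicle rat, although the groups were close.

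Oasl2, an OAS-like protein, gave 147, 274 and 288 in E2 + 3-MC rats, 485, 136 and 113 in 3-MC rats, 125, 106 and 98.3 in E2 rats and 127, 72.3 and 142 in vehicle rats. Every E2 + 3-MC rat was above every vehicle rat, 2 of the 3 by a wide margin. Oasl ran from 30.0 in vehicle rat 2 to 169 in 3-MC rat 1. The probe sets of Mx1 and Mx2, of the Oas, Ifit and Gbp families and of Slfn4 can in part take up RNA of close relatives, so their separate levels are uncertain to that extent.

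Isg15, the ubiquitin-like modifier secreted and conjugated in interferon-treated cells, read 348, 839 and 1257 in E2 + 3-MC rats, 1362, 173 and 243 in 3-MC rats, 197, 197 and 182 in E2 rats and 238, 131 and 359 in vehicle rats. Its highest rats were those of Mx1, and E2 + 3-MC rat 1 lay just below vehicle rat 3. The protease that removes ISG15 and damps the receptor, Usp18, read 63.2, 129 and 147 in E2 + 3-MC rats, 222, 45.4 and 37.5 in 3-MC rats, 36.8, 41.4 and 56.8 in E2 rats and 58.2, 39.1 and 85.6 in vehicle rats. All E2 + 3-MC rats were above all E2 rats. Herc6, the ISG15 ligase of the mouse, ran from 92.7 to 305 and Trim25, a ubiquitin ligase of RIG-I signalling, from 584 to 881, both highest in 3-MC rat 1.

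Of the transcription factors, Irf7, the amplifier of interferon production, read 264, 519 and 603 in E2 + 3-MC rats, 655, 167 and 174 in 3-MC rats, 164, 155 and 181 in E2 rats and 169.8, 133 and 288 in vehicle rats. In 3 rats it was at 519 or above and the rest at 288 or below. Irf1, which interferon gamma induces strongly, read 181, 371 and 421 in E2 + 3-MC rats, 359, 219.8 and 189 in 3-MC rats, 195, 188 and 182 in E2 rats and 169, 158 and 195 in vehicle rats. The ISGF3 subunit Stat2 read 259, 445 and 482 in E2 + 3-MC rats, 556, 215 and 254 in 3-MC rats, 203, 200.4 and 222 in E2 rats and 249.7, 211 and 293 in vehicle rats. In both Irf1 and Stat2 the same 3 rats stood above the rest. Irf9, the DNA-binding subunit of ISGF3, ranged less widely, from 359 in vehicle rat 2 to 708 in 3-MC rat 1.

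The DNA and RNA sensor Zbp1 read 87.8, 289 and 296 in E2 + 3-MC rats, 337, 90.0 and 77.0 in 3-MC rats, 58.9, 60.2 and 66.6 in E2 rats and 80.5, 76.7 and 86.7 in vehicle rats. Vehicle and E2 rats were tight, with 3 rats of the 3-MC-treated groups more than 3 times as bright. Ddx58, which encodes the RNA sensor RIG-I, read 176, 222 and 281 in E2 + 3-MC rats, 442, 132 and 133 in 3-MC rats, 178, 157 and 146 in E2 rats and 204, 115 and 198 in vehicle rats. Only 3-MC rat 1 stood well apart. The sensors Ifih1 and Dhx58 and the RNA-activated kinase Eif2ak2 were likewise highest in 3-MC rat 1, at 450.2, 303 and 777.

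**Figure D2:**
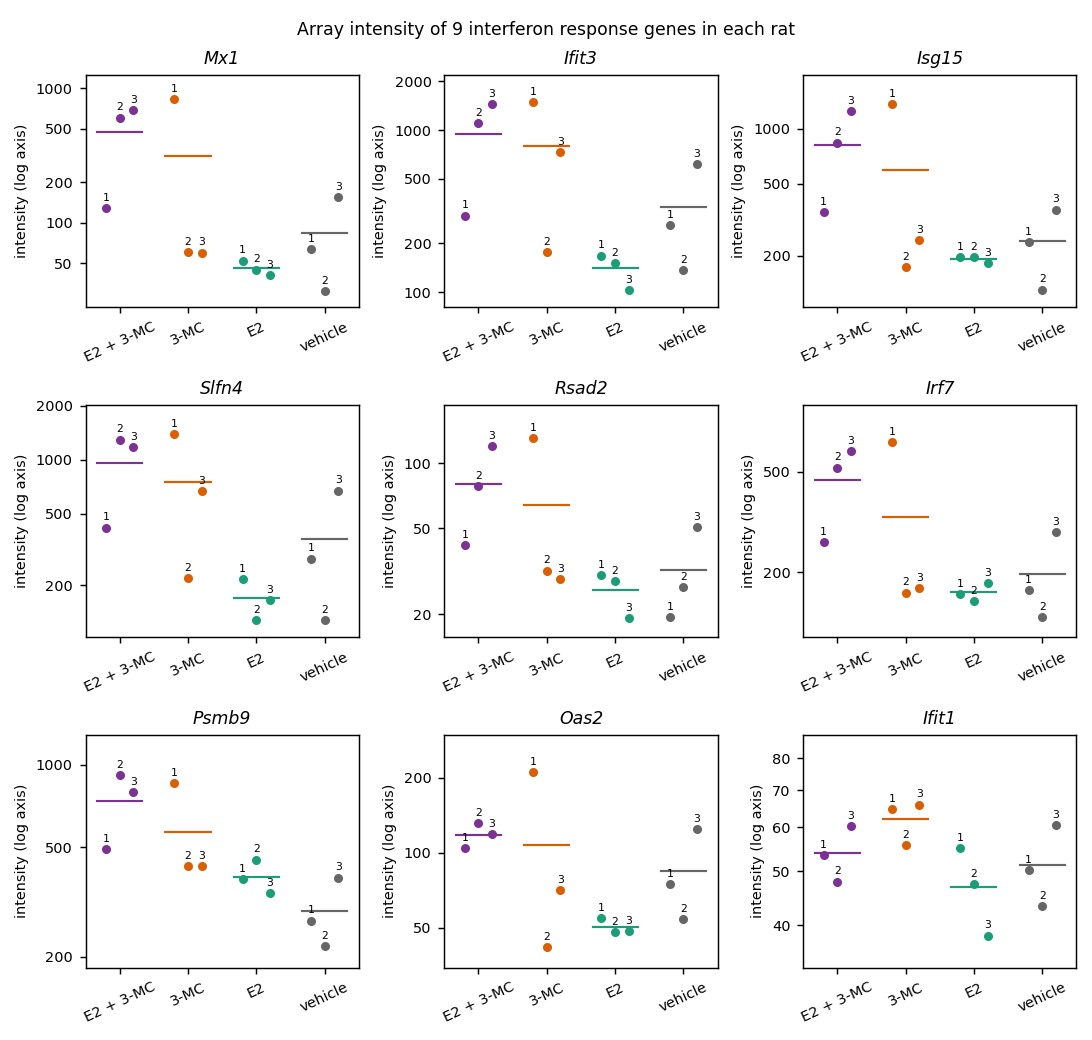
Array intensity (log axis) of 9 of the genes in each rat by group, each point 1 rat with its number and each line the group mean of 3 rats. Mx1, Isg15, Irf7 and Rsad2 split the 3-MC rats into 1 high rat and 2 low ones, Ifit3 and Slfn4 are also high in 3-MC rat 3 and vehicle rat 3, and Ifit1 lies between 38.3 and 65.9 throughout.

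In antigen processing, the immunoproteasome subunit Psmb9 read 494, 917 and 792 in E2 + 3-MC rats, 855, 428 and 428 in 3-MC rats, 384, 452 and 340.1 in E2 rats and 271, 218 and 388 in vehicle rats. It was the one gene of the set in which every 3-MC rat was above every vehicle rat (2.63% of the set, against 4.71% of all probe sets). Its partner subunit Psmb8 read 163, 255 and 254 in E2 + 3-MC rats, 317, 127 and 145 in 3-MC rats, 159, 143 and 115 in E2 rats and 149, 66.9 and 151 in vehicle rats. The peptide transporter Tap1, divergently transcribed from the Psmb9 interval printed above, read 160.2, 367 and 362 in E2 + 3-MC rats, 359, 176 and 141 in 3-MC rats, 165, 134 and 148 in E2 rats and 141, 139.6 and 204 in vehicle rats. Tap1 differed from Psmb9 in that 3-MC rats 2 and 3 lay within the vehicle range.

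Parp9, an ADP-ribosyltransferase that works with the ubiquitin ligase Dtx3l, read 573, 569 and 549 in E2 + 3-MC rats, 872, 418 and 324 in 3-MC rats, 563, 572 and 478 in E2 rats and 432, 294 and 415 in vehicle rats. Dtx3l read 203, 226 and 279 in E2 + 3-MC rats, 325, 163 and 129 in 3-MC rats, 204, 175 and 191 in E2 rats and 151, 123 and 161 in vehicle rats. In both genes every E2 rat was above every vehicle rat, which held for no other gene of the set (5.26% of the set, against 10.1% of all probe sets).

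Among further effectors, Rsad2, which encodes the antiviral radical-SAM enzyme viperin, read 42.0, 78.2 and 120.0 in E2 + 3-MC rats, 131, 31.9 and 29.1 in 3-MC rats, 30.5, 28.6 and 19.1 in E2 rats and 19.3, 26.7 and 50.5 in vehicle rats. Its levels were low on the array and the highest rats were the usual 3. Cmpk2, the neighbouring gene on chromosome 6, a nucleotide kinase, read 84.3, 108 and 195 in E2 + 3-MC rats, 160.0, 50.9 and 59.7 in 3-MC rats, 54.3, 63.7 and 49.4 in E2 rats and 61.8, 39.0 and 74.5 in vehicle rats. All E2 + 3-MC rats were above all vehicle rats. Slfn4, a Schlafen family gene of myeloid cells in mouse, read 419, 1295 and 1174 in E2 + 3-MC rats, 1382, 219 and 665 in 3-MC rats, 216, 128 and 165 in E2 rats and 281, 128 and 673 in vehicle rats. Vehicle rat 3 and 3-MC rat 3 were high as well.

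Bst2, which encodes the virion-tethering protein tetherin, read 374, 517 and 432 in E2 + 3-MC rats, 475, 207 and 359 in 3-MC rats, 265, 239 and 219.9 in E2 rats and 267, 210.2 and 452 in vehicle rats. 3-MC rat 2 was its lowest rat and E2 + 3-MC rat 2 its highest. Ifi35 read 163, 159 and 202 in E2 + 3-MC rats, 253, 129 and 167 in 3-MC rats, 156, 155 and 145 in E2 rats and 143, 84.4 and 169 in vehicle rats. It was among the genes that differed least between groups, with 3-MC rat 1 highest. The exonuclease Isg20 ran from 75.4 to 165, Ifi27 from 839 to 1803 and Ifi44 from 291 to 1040, all 3 highest in 3-MC rat 1.

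The comparisons between groups asked what each treatment did alone, what both did together against vehicle and against each treatment, and whether the effect of one depended on the other. All 23371 probe sets above the 20th percentile of mean brightness, the 38 genes among them, were fitted together on log2 of the intensity plus 16 with limma, and a gene was called where its Benjamini-Hochberg adjusted p was under 0.05 and its change at least 1.5-fold. None of the 38 genes was called in any of 8 comparisons. The p-values rest on the spread between 3 rats a group.

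E2 + 3-MC against E2 asked what 3-MC added in estradiol-treated rats. All 38 genes were higher in E2 + 3-MC rats on the mean, 23 by at least 1.5-fold, with a median log2 difference of 0.82, against 0.05 over all probe sets tested, of which 2.49% were that much higher. In 27 genes (71.1%) every E2 + 3-MC rat was above every E2 rat, against 12% of all probe sets. The largest differences were in Mx1 (2.70 ± 0.81 SE, 6.48-fold), Ifit3 (2.38 ± 0.70, 5.20-fold), Slfn4 (2.27 ± 0.63, 4.82-fold) and Isg15 (1.82 ± 0.61, 3.53-fold), with limma adjusted p of 0.424, 0.424, 0.399 and 0.466. Of the set, 22 genes were higher at an unadjusted limma p under 0.05, against 5.99% of all probe sets, and 22 by the t-test of the study's methods, against 6.79%. limma called 0% of all probe sets. The count at unadjusted p was 12 without E2 + 3-MC rat 2, against 4.73% of all probe sets, and 10 without E2 + 3-MC rat 3, against 3.65%.

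The count of called genes differed with the arrays that were fitted. The median within-group SD of the 38 genes was 0.48 in E2 + 3-MC rats, 0.78 in 3-MC rats, 0.14 in E2 rats and 0.38 in vehicle rats, against 0.16, 0.20, 0.14 and 0.18 over all probe sets. With limma fitted to the 6 arrays of E2 + 3-MC and E2 alone, which leaves out both the 3-MC and the vehicle rats, 13 of the 38 genes were called, all higher in E2 + 3-MC rats, against 1.54% of all probe sets. These were Mx1, Mx2, Ifit3, Isg15, Oas2, Oasl2, Rsad2, Irf7, Usp18, Zbp1, Gbp2, Slfn4 and Bst2, with adjusted p between 0.00652 for Oas2 and 0.0445 for Usp18. Leaving out only the 3-MC group or only the vehicle group, with 9 arrays each, gave no called gene (smallest limma adjusted p 0.148 without 3-MC rats and 0.294 without vehicle rats), as did leaving out 3-MC rat 1 from all 12 arrays (0.194). Each of these fits also called 0% of all probe sets, so the absence of calls there was not particular to the set. In the 6-array fit, 26, 0 and 1 genes were called without E2 + 3-MC rats 1, 2 and 3, against 3.69, 0.0599 and 0.18% of all probe sets. Without E2 rats 1, 2 and 3 there were 5, 11 and 2, against 0.424, 1.12 and 0.475%.

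**Figure D3:**
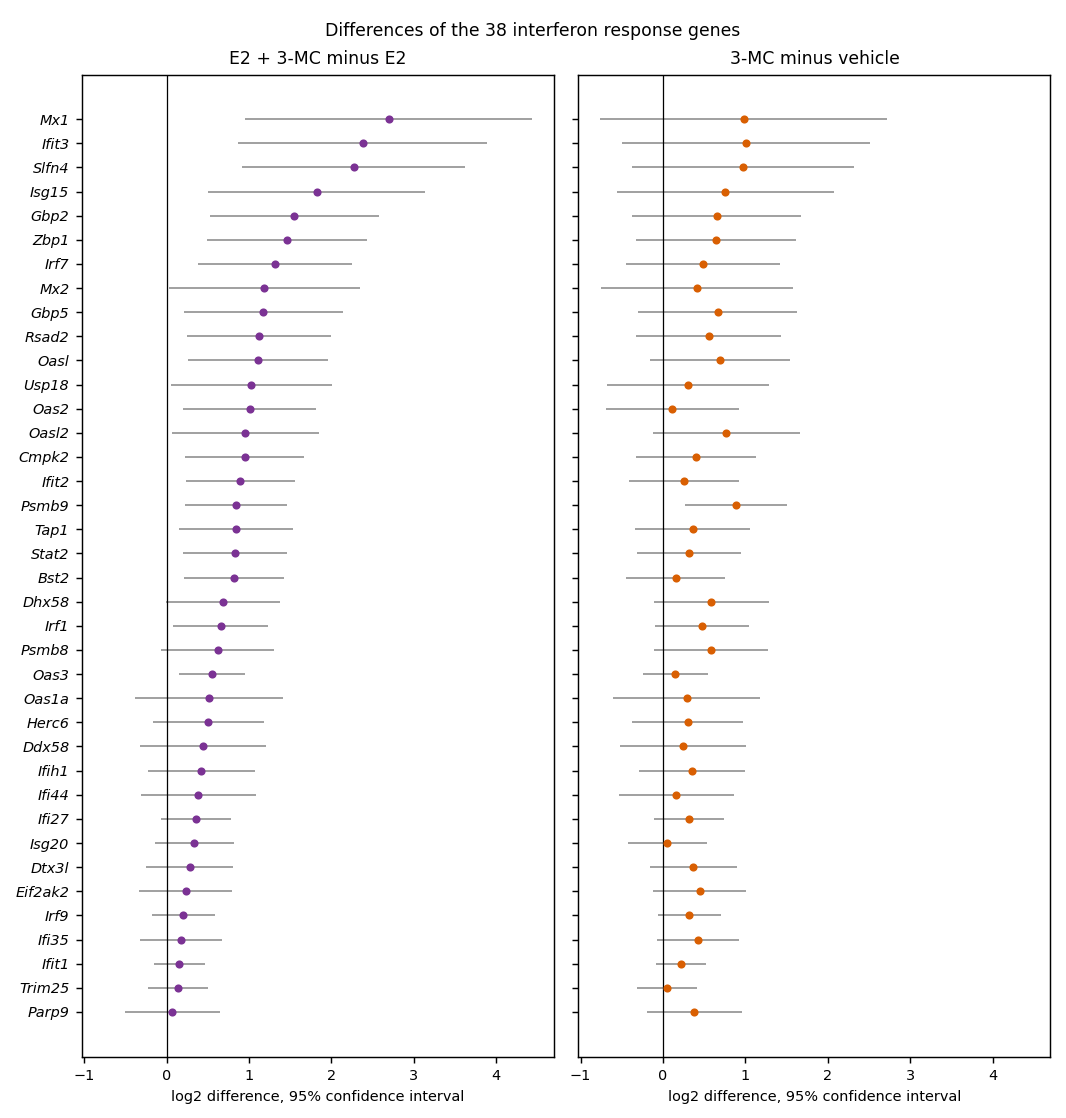
Log2 difference of each of the 38 genes with its 95% confidence interval from the limma fit of all 12 arrays, for E2 + 3-MC minus E2 (left) and 3-MC minus vehicle (right), ordered by the left panel. All points lie above 0, from 0.07 for Parp9 to 2.70 for Mx1 on the left, and every interval on the right except that of Psmb9 includes 0.

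3-MC against vehicle asked what the hydrocarbon did alone. The mean was higher in 3-MC rats for all 38 genes and by at least 1.5-fold for 11, with a median log2 difference of 0.39, against 0.06 over all probe sets, of which 1.55% were that much higher. That direction rested on 3-MC rat 1: without it 17 of the 38 genes were higher, none by 1.5-fold, and the median was -0.02. Mx1, Isg15 and Irf7 then turned to -0.18, -0.12 and -0.13, against 0.98, 0.76 and 0.49 with all rats. Psmb9 alone had an unadjusted limma p under 0.05 (3.06% of all probe sets were higher at that p), with a log2 difference of 0.89 ± 0.28 SE (95% interval 0.27 to 1.5, adjusted p = 0.92). Psmb9 was also the only gene whose groups did not overlap (2.63% of the set, against 4.71% of all probe sets). The methods' t-test put none of the set under 0.05, and limma called 0% of all probe sets.

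In E2 + 3-MC against vehicle the mean was again higher for all 38 genes, 22 of them by at least 1.5-fold, with a median log2 difference of 0.68, against 0.07 over all probe sets, of which 2.93% were that much higher. Mx1 differed by 2.21 ± 0.81 SE and Psmb9 by 1.27 ± 0.28 SE, with limma adjusted p of 0.433 for Mx1 and 0.148 for Psmb9, the smallest of the set. limma called 0.163% of all probe sets and none of these genes. At an unadjusted p under 0.05, 17 genes were higher in limma, against 6.99% of all probe sets, and 4 in the methods' t-test, against 5.25%. The limma count was 3 without E2 + 3-MC rat 2 (6.55% of all probe sets), 1 without E2 + 3-MC rat 3 (4.42%), 29 without 3-MC rat 1 (7.88%) and 2 without vehicle rat 2 (3.32%). Groups did not overlap in 10 genes (26.3%), Psmb8, Psmb9, Isg20, Oasl2, Herc6, Parp9, Dtx3l, Ifi44, Zbp1 and Cmpk2, against 10.5% of all probe sets.

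E2 against vehicle asked what estradiol did alone. In E2 rats against vehicle rats 13 of the 38 genes were higher and 25 lower on the mean, none at least 1.5-fold higher and 2 at least 1.5-fold lower, with a median log2 difference of -0.10, against 0.02 over all probe sets. limma called 1.58% of all probe sets and none of the set, in which no gene had an unadjusted p under 0.05, against 6.82% of all probe sets that were higher at that p, and 2 had one by the methods' t-test, 1 in each direction. Every E2 rat was above every vehicle rat in Parp9 and Dtx3l (5.26%, against 10.1% of all probe sets) and below in Oas3 and Zbp1 (against 8.05% of all probe sets). Parp9 had the largest of these differences, 0.50 ± 0.27 SE (limma adjusted p = 0.524).

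E2 + 3-MC against 3-MC gave 34 genes higher and 3 at least 1.5-fold, with a median log2 difference of 0.31, against 0.02. No gene of the set was called, against 0.111% of all probe sets, none had an unadjusted p under 0.05 in limma (2.81% of all probe sets were higher at that p) or in the methods' t-test, and none was higher in every rat, against 4.48%. Without 3-MC rat 1 the median was 0.70, and 27 genes had an unadjusted p under 0.05, against 5.92% of all probe sets, none of them called (smallest limma adjusted p 0.171).

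Over both estradiol states, the 3-MC main effect had a median log2 difference of 0.57 over the 38 genes, with 22 higher at an unadjusted p under 0.05, against 7.71% of all probe sets, and none called, as in 0% of all probe sets. Psmb9 (0.86 ± 0.20 SE), Slfn4 (1.62 ± 0.44 SE) and Ifit3 (1.69 ± 0.49 SE) had the smallest p, with a limma adjusted p of 0.419 each. The E2 main effect had a median of 0.10, no gene at an unadjusted p under 0.05, against 6.63% of all probe sets higher at that p, and no call, against 1.12% of all probe sets. Without 3-MC rat 1 this median was 0.33 and 13 genes were higher at an unadjusted p under 0.05, against 9.64% of all probe sets, with 2 at a limma adjusted p under 0.05 (smallest 0.0371) but under 1.5-fold and so not called. For the interaction, the E2 effect in 3-MC-treated rats minus that in rats without 3-MC, the median was 0.34, with no gene at an unadjusted p under 0.05, against 1.59% of all probe sets above 0 at that p, and no call, as in 0% of all probe sets. Without 3-MC rat 1 the median interaction was 0.82 and 21 genes had an unadjusted p under 0.05, against 3.36% of all probe sets, none called (smallest limma adjusted p 0.927). That fit called 0 probe sets over the array for the interaction. Mx1 had an interaction of 1.72 with a 95% interval from -0.75 to 4.18, so these rats bound it only loosely.

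Other parts of the pathway were read from lists chosen with earlier results known. Of 13 interferon and receptor genes, 8 were tested and none was called in any comparison, with 1 at an unadjusted limma p under 0.05 and higher in E2 + 3-MC against E2. Ifnb1 and Ifna4, which encode type I interferons, stayed between 41.6 and 95.6 and between 74.3 and 111, with 3-MC rat 2 lowest in both, and the receptor chain Ifnar1 lay between 207 and 322. Ifng, the gene of interferon gamma, read 88.0, 97.8 and 93.2 in E2 + 3-MC rats, 68.4, 61.0 and 45.7 in 3-MC rats, 57.3, 36.3 and 31.96 in E2 rats and 52.6, 50.7 and 61.4 in vehicle rats. All 3 E2 + 3-MC rats were above the other nine, by a small margin and at a low level.

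Of 17 signal transducers and sensors outside the set, 12 were tested and none was called, with a median log2 difference of 0.12 in E2 + 3-MC against E2, and 4 of them were higher there at an unadjusted limma p under 0.05, as were 5.99% of all probe sets. Of 38 further interferon-stimulated genes, 28 were tested with no call, a median of 0.38 and 7 higher at that p. Of 22 genes of interferon gamma and antigen presentation, 17 were tested with no call, a median of 0.69 and 12 higher at that p. Of these 17, 11 were at least 1.5-fold higher in E2 + 3-MC rats, against 2.49% of all probe sets. In E2 against vehicle, where limma called 1.58% of all probe sets, 1 of 10 tested negative regulators was called. This was Ptpn1, a phosphatase of JAK2 and TYK2, higher in E2 rats (log2 difference 0.74, limma adjusted p = 0.0352). That call was lost without vehicle rat 1 or 2, without any 1 E2 rat or without E2 + 3-MC rat 2 (adjusted p up to 0.155).

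Immune cell markers moved with part of this pattern. The 12 macrophage and myeloid markers, among them Cd68, Csf1r and Lyz2, had list levels of 0.10, 1.17 and 0.95 in E2 + 3-MC rats, 1.07, -0.13 and 0.98 in 3-MC rats, -0.57, -0.56 and -0.26 in E2 rats and -0.18, -0.67 and 0.83 in vehicle rats. Cd14, also among the 12, went the other way in E2 rats, at 1983, 1519 and 1743 against 853, 917 and 1132 in vehicle rats. Only Cd14 of these markers was called in E2 against vehicle (log2 difference 0.84, limma adjusted p = 0.037), against 1.58% of all probe sets. The 3 rats with high interferon genes had high myeloid markers, but 3-MC rat 3 and vehicle rat 3 had them too, with interferon list levels of 0.02 and 0.31. The 10 measured lymphocyte markers had levels of 0.26, 0.86 and 0.79 in E2 + 3-MC rats, 0.73, 0.00 and 0.23 in 3-MC rats, -0.21, -0.24 and -0.02 in E2 rats and 0.00, -0.26 and 0.11 in vehicle rats. For lymphocytes the 3 highest rats were those of the interferon genes. In E2 + 3-MC against E2, 10 of 12 myeloid and 6 of 9 tested lymphocyte markers were at least 1.5-fold higher, against 2.49% of all probe sets. None was called, and 9 and 8 were higher at an unadjusted limma p under 0.05, against 5.99% of all probe sets. Their part in the levels of the interferon genes was not tested.

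Plasmacytoid dendritic cells are the professional producers of type I interferon. Of 7 markers 6 were measured, Siglech not among them, and Bst2 is also one of the 38 genes. Their list level ran from -0.07 to 0.37 in E2 + 3-MC rats, -0.24 to 0.18 in 3-MC rats, -0.32 to -0.08 in E2 rats and -0.08 to 0.20 in vehicle rats. The markers Spib and Ccr9 were near the floor of the array, between 22.0 and 47.2 and between 21.4 and 36.2. Irf8 read 103, 313 and 234 in E2 + 3-MC rats and 209, 85.0 and 178 in 3-MC rats. It read 59.7, 81.7 and 81.5 in E2 rats and 107, 71.8 and 189 in vehicle rats. Of 4 tested markers, 2 were higher in E2 + 3-MC against E2, both by at least 1.5-fold (2.49% of all probe sets). Both had an unadjusted limma p under 0.05 (5.99% of all probe sets), and none was called.

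The 7 measured AHR target genes had list levels of 0.12, 1.55 and 0.61 in E2 + 3-MC rats, 0.99, -0.07 and 0.86 in 3-MC rats, -0.34, -0.17 and -0.39 in E2 rats and -0.02, -0.29 and 0.10 in vehicle rats. Cyp1b1, an AHR-induced monooxygenase, read 154, 560.2 and 407 in E2 + 3-MC rats, 553, 101 and 588 in 3-MC rats, 97.7, 88.3 and 107 in E2 rats and 161, 127 and 211 in vehicle rats. E2 + 3-MC rat 1 and 3-MC rat 2 were within the range of the vehicle rats or below it, and their interferon list levels were 0.24 and -0.05, whereas 3-MC rat 3 was high in Cyp1b1 with an interferon list level of 0.02. Of the other targets, Cyp1a1, Ahrr and Nqo1 split the 3-MC-treated rats in the same way. Cyp1a2 and Aldh3a1 did not, and lay within 149 to 217 and 69.2 to 96.4 over all rats. Nor did Gsta1, which read 826, 635 and 457 in 3-MC rats. The part of these differences between 3-MC-treated rats in the result was not tested.

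**Figure D4:**
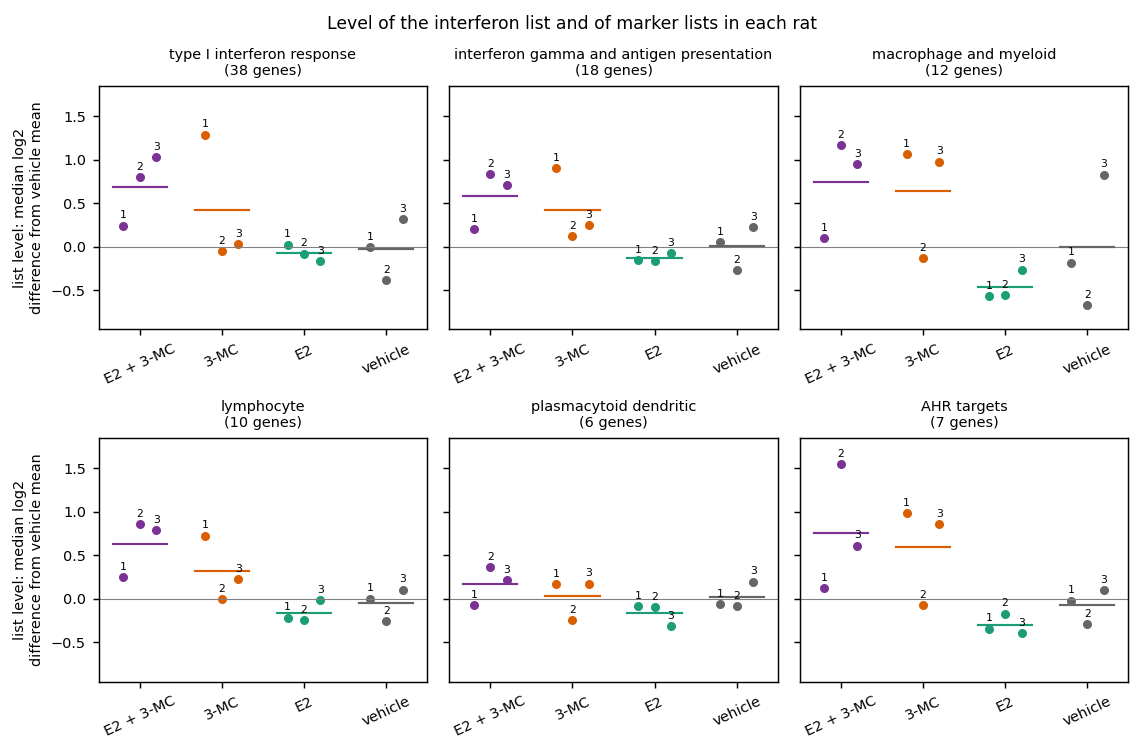
List level, as a log2 value, by group and rat for the 38 interferon response genes and 5 other lists, each point 1 rat with its number and each line the mean of 3 rats. 3-MC rat 3 is near 0 for the interferon genes (0.02) and near 1 for the myeloid markers (0.98), and E2 rats lie at or below the vehicle mean in all 6 panels except for E2 rat 1 in the interferon panel (0.02).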

How the data were processed

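RNA from 12 mammary glands was hybridised to 1 array each. Per the labels and the methods, the authors checked array quality in Affymetrix Expression Console and used PLIER, with a quantile step and a shift to the control median in GeneSpring per the methods. They deposited linear intensities for 29214 probe sets, with array medians from 85.7 to 109 and no centring on the controls, and which of these steps the deposited intensities carry is not given in the sources used here, nor is a genome build. Probe sets were named from GEO's platform annotation: 15310 carried 1 symbol, 323 several and 13581 none, and those with several or none named no gene. The number of arrays limits the precision. With R 4.3.3 and limma 3.58.1, log2(intensity + 16) of the 23371 probe sets above the 20th percentile was fitted with 4 group means, and p-values were adjusted over all of them (Benjamini-Hochberg). The design was taken from the labels; the methods' t-test was an alternative, as were other filters, pseudocounts, scalings, probe sets, array weights, 2-group fits, a replicate block and leaving out each rat. A 6-array replicate block, the 9-array fits and the single-rat exclusions within 2-group fits were chosen after seeing the data. Same-numbered 3-MC and vehicle rats deviated together from their group means (correlations 0.341, 0.442 and 0.564), and the labels state no pairing. Correlations between rats of different numbers were not computed, so whether the number itself matters was not tested. No other pair of groups had all 3 correlations above 0.1 (E2 + 3-MC with E2 had 0.13, 0.0809 and 0.137). Every rat is given for 27 genes, by a rule of listed genes, the 3 highest within-group SDs and the 3 smallest p in each comparison, and 11 genes by range. The fit was tested on simulated data. The genes, lists and tests were chosen with earlier results of these data known. Figures were drawn with matplotlib 3.10.9.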

Additional observations from a re-analysis of the deposited data

Results flagged for a closer look

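In 3 genes every E2 + 3-MC rat was above the log2 mean of the 3-MC rats, while every E2 rat was below that of the vehicle rats. The E2 effect in 3-MC-treated rats minus that in rats without 3-MC was 0.90 for Oas2, 0.67 for Bst2 and 0.22 for Ifi44 on the log2 scale. limma's interaction term tested this difference and none of the 3 passed (adjusted p = 0.982 for Oas2, 0.982 for Bst2 and 0.989 for Ifi44).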

How the results depend on the processing

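Under the alternatives run, the count of called genes stayed at 0 in all 8 comparisons, apart from the 13 called in E2 + 3-MC against E2 when only the arrays of these 2 groups were fitted (0 to 26 with 1 of these 6 rats left out). With each rat left out in turn, the median interaction of the set ran from 0.11 to 0.82, the upper end without 3-MC rat 1. The number of genes with every rat higher ran from 2 to 7 for E2 against vehicle, from 1 to 9 for 3-MC against vehicle, from 10 to 33 for E2 + 3-MC against vehicle and from 0 to 29 for E2 + 3-MC against 3-MC. The upper ends came without vehicle rat 3 for the comparisons with vehicle (18.4, 23.7 and 86.8% of the set, against 16.7, 12.8 and 21.1% of all probe sets) and without 3-MC rat 1 for the last (76.3%, against 16%). Without E2 + 3-MC rat 1, 31 were higher than in vehicle rats (81.6%, against 15.4%). Quantile normalization gave 1 such gene in E2 + 3-MC against 3-MC. In 3-MC against vehicle the log2 differences ran from -0.18 to 1.56 for Mx1, from -0.12 to 1.31 for Isg15 and from -0.13 to 0.81 for Irf7, the negative ends without 3-MC rat 1. With the replicate block over all 12 arrays 0 genes were called in any comparison and 20 were at an unadjusted p under 0.05 in E2 + 3-MC against E2, and a replicate block in the 6 arrays of 3-MC and vehicle gave 7 at that p in that comparison and no call, so the block changed no call. With 3 rats a group, the exact permutation test of 1 gene cannot go below p = 0.1.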

Other observations

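Over the whole array, the same 3 highest rats with at least a 1.5-fold gap between the third and the fourth were found in 54 probe sets of the array, 36 with 1 symbol, of which 13 were interferon response genes of the set. The others are named here after their values were seen. The chemokines Cxcl10 and Cxcl11, which bind the receptor CXCR3 on T and natural killer cells, had the widest gaps, 2.70 and 2.20 on the log2 scale. Cxcl10 read 166, 1182 and 2238 in E2 + 3-MC rats, 1182, 134 and 141 in 3-MC rats, 71.6, 79.3 and 87.3 in E2 rats and 122, 67.2 and 168 in vehicle rats. Genes of natural killer and cytotoxic T cells were also present, namely Klrk1, Klrd1, Klrc3, Klrb1c, Nkg7, Il2rb and Ctsw. All were selected by this order of rats, and other markers of these cells were not among the probe sets found. Cd8a did not have the order, with 3-MC rat 3 at 158, E2 + 3-MC rat 3 at 151 and 3-MC rat 1 at 150. Gzmb had the same 3 highest rats, the third at 166, but E2 + 3-MC rat 1 followed at 152. Fcgr3a, Fcnb, Slamf9 and Bcl2a1 were among the rest, with gaps of 1.64, 1.15, 0.72 and 0.69, that of Fcgr3a wider than that of Klrk1 (1.33). Nkg7 read 56.9, 279.5 and 205 in E2 + 3-MC rats, 161, 26.5 and 49.0 in 3-MC rats, 26.0, 29.0 and 34.9 in E2 rats and 31.8, 25.8 and 46.4 in vehicle rats. The interferon-inducible GTPases Irgm, Igtp and Ifi47 had gaps of 0.68, 0.65 and 0.62.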
